A study of Ovis aries with 40 samples.

Results

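The change in the proximal lung of wild-type (WT) sheep between day 120 of gestation and term was measured by RNA-seq. The 4 libraries compared, of 40 in the series, were those labelled WT, proximal lung and day 120 (2 fetuses) or day 147, given as birth (2 lambs). All animals were American Romney sheep, and the WT animals came from natural matings and carried no edited allele. The other libraries of the series were WT or CFTR-/- (CF), proximal or distal lung, at days 65, 80, 100, 120 and 147, with 2 libraries a group. The CFTR-/- animals were made by somatic cell nuclear transfer from 1 modified male fibroblast line, so a difference between WT and CF lung also carries cloning and the donor line. Natural birth is stated for the WT term animals alone, so at term delivery and air breathing may differ too.

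Several features of the design limit what the groups stand for. The WT term lambs were born naturally and lived for a recorded time that is not given in the sources used here, so age, labour and air breathing cannot be told apart. The day 120 fetuses share the stem of their animal identifier and the term lambs do not. With 2 libraries a group, every p-value for the change rests on a spread estimated with 5 residual degrees of freedom over the 10 WT proximal libraries. In the labels, the pair of WT day 100 libraries was assigned to a single animal in each region, so 1 of these degrees of freedom may hold no spread between animals. The second WT day 65 animal also shares its label with the second CF day 100 animal. The day 120 libraries held 33804005 and 38635126 assigned reads and the term libraries 124896207 and 125713608, that is 3.23 to 3.72 times as many, so low genes were measured less precisely at day 120.

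The labels call the samples epithelial tissue, but they were pieces of whole lung. In normalized CPM (read counts scaled to a common library total) per kb of exon, the mean level of the epithelial adhesion gene EPCAM was 179 at day 120 and 243 at term, that of the fibrillar collagen COL3A1 1182 at day 120 and 455 at term and that of the endothelial adhesion gene PECAM1 155 at day 120 and 153 at term. The lung lineage factor NKX2-1 was expressed in all 4 libraries. Some markers of a proximal sample, of basal cells and cartilage, were low. Airway basal cell keratin KRT5 was measured at 4.76 and 2.6 at day 120 and 2.58 and 3.77 CPM at term and the cartilage collagen COL2A1 at 1.59 and 2.01 at day 120 and 0.548 and 0.618 CPM at term, while the alveolar surfactant gene SFTPC stood at 2344 and 3329 at day 120 and 10139 and 13199 CPM at term. In the distal lung of the same animals SFTPC stood at 1662 and 2153 at day 120 and 7885 and 14910.0 CPM at term and the ciliated cell factor FOXJ1 at 18.9 and 64.4 at day 120 and 61.2 and 155 CPM at term, against 49 and 32 at day 120 and 49.1 and 115 CPM at term in the proximal samples when all WT libraries were scaled together. SFTPC thus had levels of the same order in both regions. In such bulk samples, fewer cells of a type and less RNA per cell cannot be told apart.

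As background, the late fetal lung is filled with liquid that its epithelium secretes, and its saccules are divided into alveoli before and after birth in sheep. Toward birth the epithelium changes from chloride secretion to sodium absorption, surfactant stores build up under rising cortisol, the mesenchyme thins, and capillaries come to lie against the air spaces. Macrophages settle in the air spaces around birth, and the airways gain secretory and ciliated cells that carry mucus outward.

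Of 18186 genes tested, 219 were differentially expressed genes (DEGs) higher at term and 170 were DEGs lower at term, or 1.20% and 0.935%. DEGs met both of these limits, a Benjamini-Hochberg adjusted p of at most 0.001 and a change of at least 0.58 in size on the log2 scale. With the WT day 100 libraries summed to 1, there were 225 DEGs in place of 389. There were 54, 28, 337 and 98 without day 120 replicate 1, day 120 replicate 2, term replicate 1 and term replicate 2, and edgeR on these 4 libraries alone gave 0 DEGs, with 6813 genes at an unadjusted p under 0.05. At the wider limit of an adjusted p of 0.05, which is used below for "rose", "fell" and "passed", 13.5% of genes rose and 11.1% fell. These are 2463 and 2013 genes, and with upper quartile scaling the balance turned, at 2196 and 2350. The median log2 fold change over all genes was 0.06. Counts of list members are to be set beside these shares of 13.5% and 11.1%. Both libraries of 1 age lay above both of the other for 12258 of the 18186 genes tested and for all 389 DEGs. Such a separation is therefore common. Unless another quantity is named, values given per library are CPM in the order replicate 1 and replicate 2, and ± is the standard error of the fitted log2 fold change. The 4 numbers in brackets after a count of list members are the same count with day 120 replicate 1, day 120 replicate 2, term replicate 1 or term replicate 2 left out, in that order. They are read as a range, because each such fit has fewer animals. Values in brackets with ± are log2 fold changes. Where a fit with a library left out had 3 or fewer counts of a gene at day 120, no fold change is given for it.

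**Figure D1:**
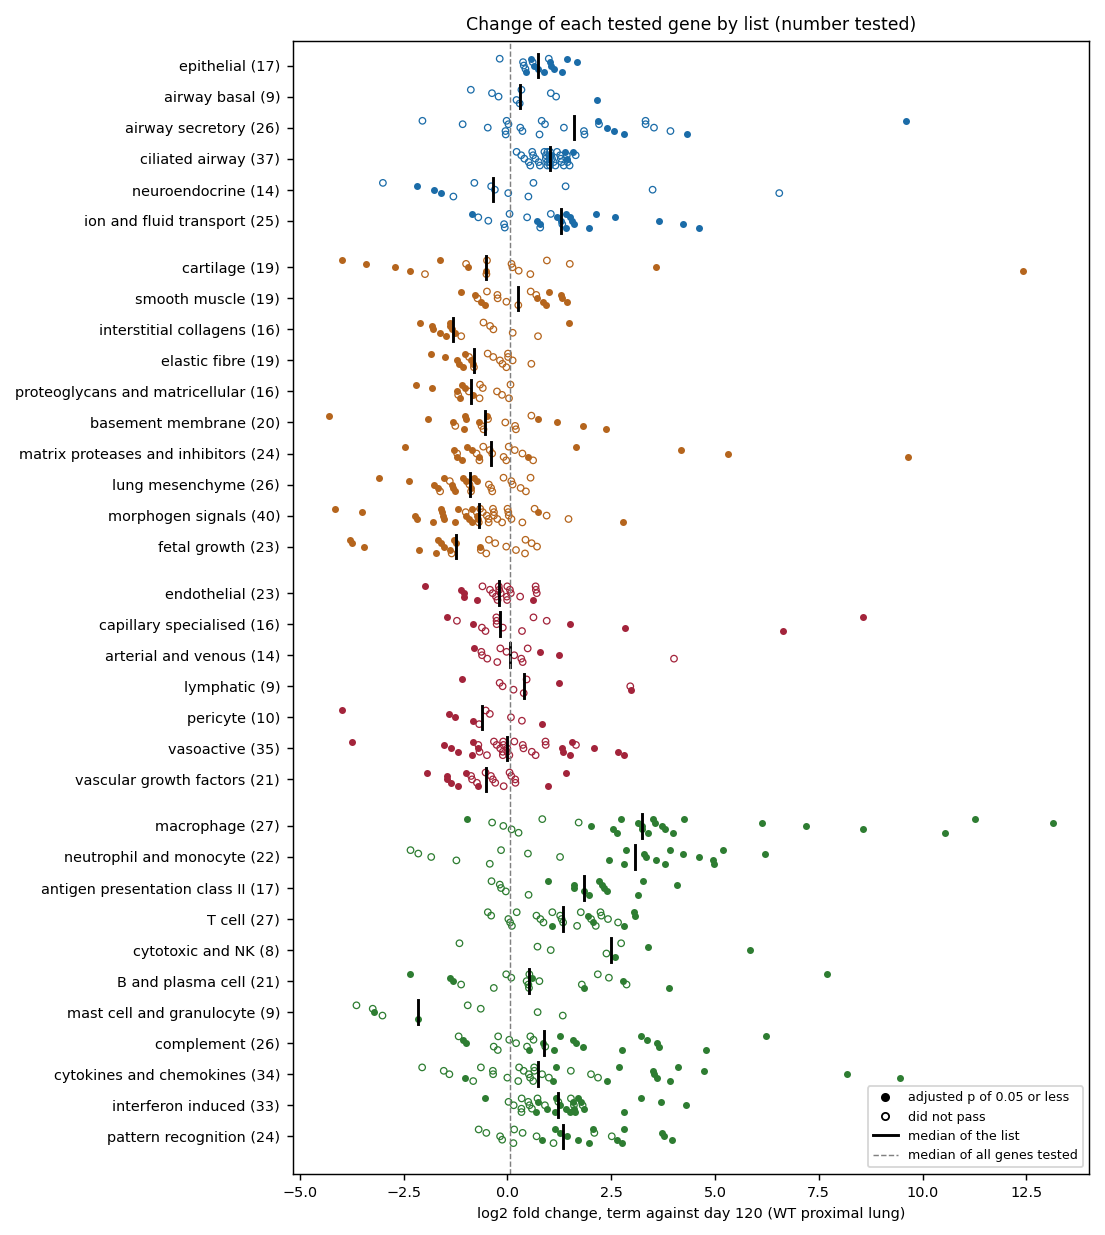
Log2 fold change (term over day 120, x axis) of each tested gene in the airway, stromal, vascular and immune lists (rows, with the number tested). Filled points have an adjusted p of 0.05 or less, black bars are list medians and the dashed line is the median of 0.06 over all genes. The macrophage list has its median at 3.25 and the medians of the mesenchymal and collagen lists lie to the left of the dashed line.

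Many epithelial genes rose. Of 17 general epithelial genes tested, 11 (7, 8, 9 and 8) rose and the others did not pass, with a median log2 fold change of 0.73. The keratin gene KRT18 was measured at 40.5 and 26.6 at day 120 and 106 and 108 at term, its partner KRT8 at 223 and 194 at day 120 and 614 and 521 at term and the tight junction claudin CLDN7 at 53.4 and 55.2 at day 120 and 138 and 131 at term. For all 3 genes both term libraries lay above both day 120 libraries, as for every DEG higher at term. The log2 fold changes were 1.67 ± 0.21, adjusted p = 0.000887 for KRT18, 1.45 ± 0.15, adjusted p = 0.000364 for KRT8 and 1.3 ± 0.11, adjusted p = 0.000172 for CLDN7, all 3 DEGs. EPCAM, the usual marker of epithelium, rose from 175 and 197 to 251 and 254 (0.44 ± 0.1, adjusted p = 0.015). CDH1, which encodes E-cadherin, rose by 1.12 ± 0.19, adjusted p = 0.00346. EPCAM did not pass without day 120 replicate 1, with an adjusted p of 0.0982. EPCAM did not pass without term replicate 2, with an adjusted p of 0.0606.

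Genes of airway secretory cells were led by SCGB1A1, the secretoglobin of club cells, which lies at chr21:40088778-40092079 of Oar_v4.0. Its CPM was 2.53 and 0 at day 120 and 630.3 and 1280.5 at term, so that both lambs were far above both fetuses. The fitted log2 fold change was 9.59 ± 1.06, adjusted p = 0.000821, a DEG, and its size depends on the low day 120 values. Of 33 secretory genes listed, 26 were tested and 6 (5, 2, 6 and 3) rose, with a median of 1.6. The airway defence protein gene BPIFB1 ran at 11.8 and 1.36 at day 120 and 31.7 and 229 at term, and PIGR, the receptor that carries immunoglobulin A to the airway surface, at 115 and 53.2 at day 120 and 174 and 1008 at term. In both genes most of the rise came from term replicate 2, which was 7.22 times term replicate 1 for BPIFB1 and 5.8 times for PIGR. Their log2 fold changes were 4.31 ± 1.23, adjusted p = 0.0314 and 2.81 ± 0.77, adjusted p = 0.0273. The trefoil peptide gene TFF2 was a DEG at 43.4 and 28.1 at day 120 and 151 and 228 at term (log2 fold change 2.41 ± 0.25, adjusted p = 0.000424). The mucin gene MUC5B was below the filter at 0.705 and 0 at day 120 and 0.0428 and 0.0501 at term and the antimicrobial BPIFA1 was low at 0.411 and 0 at day 120 and 0.856 and 3.26 at term (log2 fold change 3.33 ± 1.41, adjusted p = 0.132). SCGB3A2, a secretoglobin of the small airways, was at 332 and 28.6 at day 120 and 245 and 201 at term, with day 120 replicate 1 above both lambs. PIGR did not pass without day 120 replicate 1, with an adjusted p of 0.0647, and the log2 fold change was then 6.59 for BPIFB1 and 3.48 for PIGR. BPIFB1 and PIGR did not pass without day 120 replicate 2, with adjusted p values of 0.146 and 0.168, and the log2 fold change was then 8.56 for SCGB1A1 and 3.47 for BPIFB1. BPIFB1 and PIGR moved to log2 fold changes of 5.13 and 3.58 without term replicate 1. BPIFB1 and PIGR did not pass without term replicate 2, with adjusted p values of 0.325 and 0.289, and the log2 fold change was then 9 for SCGB1A1, 2.27 for BPIFB1 and 1.05 for PIGR.

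Ciliated cell genes were alike in direction, and the share that passed was near the 13.5% of all genes that rose. All 37 genes tested had a positive log2 fold change, with a median of 1.02, yet 4 (3, 0, 4 and 1) passed. Term replicate 2 was higher than term replicate 1 for 37 of 37 genes, and day 120 replicate 1 higher than day 120 replicate 2 for 36. Summed over the list they stood at 837 and 553 CPM at day 120 and 1060.0 and 1881 CPM at term. FOXJ1, the master regulator of motile cilia, was measured at 49.2 and 32.1 at day 120 and 49.2 and 115 at term, so 1 lamb matched a fetus, and the log2 fold change was 1.02 ± 0.6, adjusted p = 0.252. The dynein gene DNAI1 and the microtubule gene TEKT1 overlapped between ages too, at 3.41 and 1.82 at day 120 and 2.79 and 7.78 at term for DNAI1 and 28 and 17.4 at day 120 and 25.9 and 62.8 at term for TEKT1. CCNO, a cyclin-like protein needed to multiply basal bodies, rose by 1.58 ± 0.49, adjusted p = 0.0451, TPPP3 by 1.44 ± 0.32, adjusted p = 0.0117, TEKT2 by 1.39 ± 0.34, adjusted p = 0.0168 and the tubulin TUBB4B by 1.04 ± 0.21, adjusted p = 0.0074. TEKT2 did not pass without day 120 replicate 1, with an adjusted p of 0.0821, and the log2 fold change was then 2.23 for CCNO. CCNO, TEKT2, TPPP3 and TUBB4B did not pass without day 120 replicate 2, with adjusted p values of 0.235, 0.0968, 0.0894 and 0.0657. CCNO, TEKT2 and TPPP3 did not pass without term replicate 2, with adjusted p values of 0.259, 0.109 and 0.0501.

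The defining basal cell genes TP63 and KRT5 were low. TP63, the defining factor of basal cells, was at 1.88 and 0.217 at day 120 and 0.659 and 1.9 at term (log2 fold change 0.29 ± 0.97, adjusted p = 0.852) and KRT5 overlapped between ages (log2 fold change -0.21 ± 0.86, adjusted p = 0.879). Of 9 basal genes tested, 1 (0, 0, 1 and 1) rose. It was S100A2, at 23.4 and 20.2 at day 120 and 99.6 and 94.9 at term, with a log2 fold change of 2.16 ± 0.5, adjusted p = 0.0135. Of the neuroendocrine genes, the granin CHGA fell from 1.35 and 1.63 to 0.479 and 0.501 (-1.6 ± 0.39), and UCHL1, which nerves and other cells also express, from 13.5 and 14.9 to 5.42 and 2.88 (-1.78 ± 0.27), with adjusted p values of 0.0172 and 0.00207. In all, 3 (3, 1, 1 and 2) of 14 neuroendocrine genes tested fell, the third being SYT1 (-2.17 ± 0.47, adjusted p = 0.0104). S100A2 did not pass without day 120 replicate 1, with an adjusted p of 0.0665. CHGA, S100A2 and SYT1 did not pass without day 120 replicate 2, with adjusted p values of 0.0912, 0.0965 and 0.0757. CHGA and SYT1 did not pass without term replicate 1, with adjusted p values of 0.0709 and 0.0592. CHGA did not pass without term replicate 2, with an adjusted p of 0.0787.

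Genes of ion and fluid transport mostly rose. Of 25 tested, 15 (13, 12, 14 and 14) rose and 1 (1, 1, 1 and 1) fell, with a median of 1.29. The 3 subunits of the epithelial sodium channel ENaC, through which lung liquid is absorbed, all rose. SCNN1B was measured at 21.6 and 17.6 at day 120 and 252 and 242 at term, SCNN1A at 15.8 and 10.1 at day 120 and 59.1 and 95.7 at term and SCNN1G at 3.55 and 1.68 at day 120 and 59.4 and 68.6 at term. Each lamb was well above each fetus for each subunit. Their log2 fold changes were 3.65 ± 0.18, adjusted p = 3.66e-05 for SCNN1B, 2.58 ± 0.4, adjusted p = 0.00247 for SCNN1A and 4.61 ± 0.68, adjusted p = 0.00193 for SCNN1G, and SCNN1B alone among them was a DEG. The member that fell was SLC12A2, the sodium-potassium-chloride cotransporter that loads cells with chloride for secretion. It went from 154 and 159 to 78.5 and 93.4 (log2 fold change -0.86 ± 0.11, adjusted p = 0.00109). The chloride channel gene CFTR, which is edited in the CF animals of the study, overlapped between ages at 12.5 and 10.8 at day 120 and 9.4 and 14.8 at term, with a log2 fold change of 0.05 ± 0.22, adjusted p = 0.893. Its sign was not stable between settings. SCNN1G moved to a log2 fold change of 5.25 without day 120 replicate 1.

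**Figure D2:**
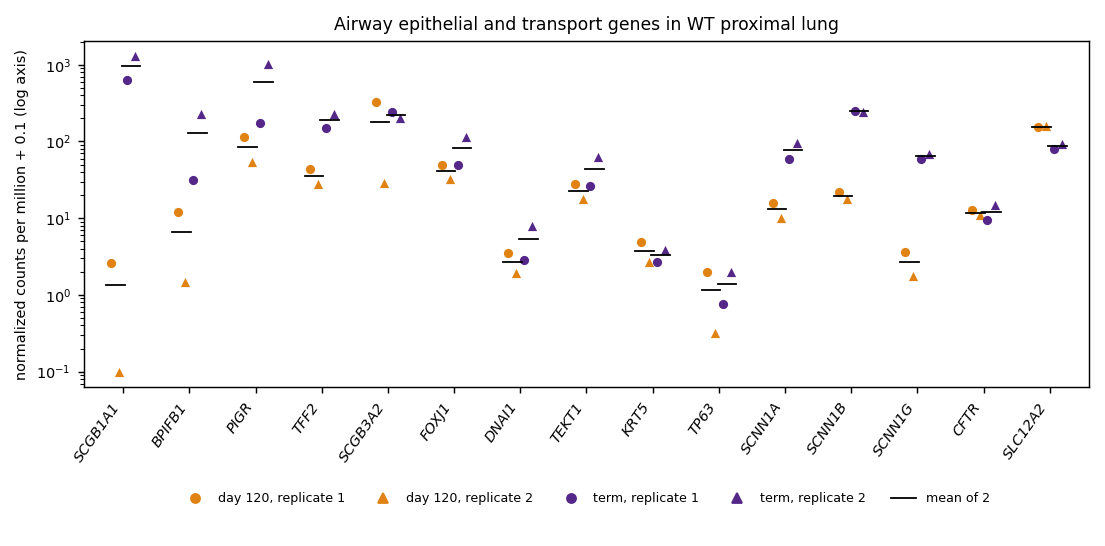
Normalized CPM + 0.1 (log axis) of airway, basal, ciliated and ion transport genes in each WT proximal library, in orange for day 120 and purple for term, with a circle for replicate 1, a triangle for replicate 2 and a bar at the mean of 2. The sodium channel subunits separate by age, with tight pairs for SCNN1B, whereas for the ciliated genes FOXJ1, DNAI1 and TEKT1 term replicate 1 sits among the day 120 points.

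Part of the stromal genes fell. Of 26 lung mesenchyme genes tested, 13 (8, 7, 15 and 6) fell and the others did not pass, with a median log2 fold change of -0.9. FGF10, the growth factor that mesenchyme sends to budding epithelium, fell from 78.8 and 132 to 13.6 and 11, with a log2 fold change of -3.1 ± 0.24, adjusted p = 0.00012. The homeobox gene MEOX2 fell from 158 and 208 to 44.1 and 26.4, or -2.37 ± 0.22, adjusted p = 0.000271. PDGFRA, the receptor of alveolar myofibroblast precursors, went from 219 and 204 to 91.5 and 75.9, or -1.34 ± 0.14, adjusted p = 0.000447. All 3 were DEGs, and as for every DEG lower at term both lambs were below both fetuses. The mesenchymal factor TCF21 fell (-1.07 ± 0.22) and ALDH1A2, which makes retinoic acid (-1.76 ± 0.38), with adjusted p values of 0.00771 and 0.01. TCF21 did not pass without day 120 replicate 2, with an adjusted p of 0.0613. ALDH1A2 moved to a log2 fold change of -2.53 without term replicate 1. TCF21 did not pass without term replicate 2, with an adjusted p of 0.0558.

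Matrix genes also fell in part. Of 16 interstitial collagens, 9 (8, 8, 13 and 7) fell and 1 (2, 0, 0 and 0) rose, with a median of -1.31. COL3A1 was measured at 5670.1 and 7314 at day 120 and 3026 and 1973 at term and COL1A1, the main chain of collagen I, at 2005 and 2133 at day 120 and 938 and 539 at term, so that the lambs had lower levels and term replicate 2 the lowest. Their log2 fold changes were -1.38 ± 0.24, adjusted p = 0.0041 and -1.49 ± 0.24, adjusted p = 0.00295. In all 16 collagens term replicate 1 was above term replicate 2. The largest fall of the list was that of COL15A1, a DEG, at 609.9 and 644 at day 120 and 159 and 133 at term (log2 fold change -2.1 ± 0.15, adjusted p = 7.95e-05), followed by COL14A1 at -1.82 and COL24A1 at -1.81. COL8A1, a short-chain collagen, rose from 2.82 and 1.19 to 6.01 and 5.17 (log2 fold change 1.48 ± 0.42, adjusted p = 0.0328). COL24A1 did not pass without day 120 replicate 1, with an adjusted p of 0.0693, and the log2 fold change was then 2.23 for COL8A1. COL24A1 and COL8A1 did not pass without day 120 replicate 2, with adjusted p values of 0.0945 and 0.166. COL8A1 did not pass without term replicate 1, with an adjusted p of 0.114, and the log2 fold change was then -2.46 for COL24A1. COL14A1, COL24A1 and COL8A1 did not pass without term replicate 2, with adjusted p values of 0.0513, 0.131 and 0.0885.

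Elastin itself did not separate the ages. ELN was measured at 1399 and 1242 at day 120 and 1246 and 1417 at term, with a log2 fold change of 0.01 ± 0.42, adjusted p = 0.988, a value near 0 that changed sign between settings. Of 19 elastic fibre genes, 8 (5, 6, 9 and 5) fell and the others did not pass. LOX, the oxidase that crosslinks elastin and collagen, was a DEG that fell from 50.4 and 47.7 to 13.4 and 14, or -1.84 ± 0.16, adjusted p = 0.00021. The fibrillin FBN2, the fetal form, fell (-1.5 ± 0.22), FBN1 (-0.83 ± 0.22) and the latent TGF-beta binding protein LTBP4 (-1.21 ± 0.27), with adjusted p values of 0.00174, 0.0237 and 0.0114. Among 16 proteoglycans and matricellular proteins 7 (5, 4, 11 and 4) fell, with a median of -0.88. THBS2 led them, from 153 and 144 to 37.2 and 26.9 (-2.21 ± 0.16, adjusted p = 9.43e-05), and VCAN and TNC, large proteins of provisional matrix, fell (-1.16 ± 0.18 and -1.02 ± 0.31.) The small proteoglycan DCN had a log2 fold change of -0.66 ± 0.22, adjusted p = 0.0596. FBN1, LTBP4 and TNC did not pass without day 120 replicate 1, with adjusted p values of 0.103, 0.0645 and 0.116. FBN1 and TNC did not pass without day 120 replicate 2, with adjusted p values of 0.0748 and 0.131. TNC moved to a log2 fold change of -1.63 without term replicate 1. FBN1, LTBP4 and TNC did not pass without term replicate 2, with adjusted p values of 0.127, 0.0696 and 0.157.

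Basement membrane genes moved in both directions. Of 20 genes tested, 4 (4, 2, 4 and 3) rose and 8 (5, 7, 11 and 5) fell. COL4A3 and COL4A4, chains of the collagen IV network made by alveolar epithelium, went from 141 and 85.7 to 614 and 556 for COL4A3 and from 193 and 123 to 617 and 494 for COL4A4. Their log2 fold changes were 2.37 ± 0.34, adjusted p = 0.00177 and 1.81 ± 0.23, adjusted p = 0.001. LAMB3 and LAMA3, chains of an epithelial laminin, rose by 1.19 ± 0.3, adjusted p = 0.0185 and 0.74 ± 0.16, adjusted p = 0.0109. In contrast LAMA1, the laminin chain of early embryonic epithelium, went from 22.3 and 20.3 to 1.78 and 0.384 (-4.3 ± 0.6, adjusted p = 0.00144) and LAMA2 from 12.8 and 12.3 to 3.88 and 2.8 (-1.91 ± 0.34, adjusted p = 0.0041). The widespread chain COL4A1 had a log2 fold change of -0.47 ± 0.27, adjusted p = 0.232. LAMA3 and LAMB3 did not pass without day 120 replicate 2, with adjusted p values of 0.0712 and 0.13. LAMA1 moved to a log2 fold change of -5.78 without term replicate 1. LAMB3 did not pass without term replicate 2, with an adjusted p of 0.112, and the log2 fold change was then -3.58 for LAMA1.

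Of 24 matrix proteases and inhibitors, 5 (3, 2, 4 and 2) rose and 7 (5, 6, 8 and 6) fell. PLAUR, the urokinase receptor of myeloid and epithelial cells, was a DEG at 2.12 and 1.14 at day 120 and 70.8 and 58 at term, with a log2 fold change of 5.31 ± 0.41, adjusted p = 0.000119. MMP7, an epithelial protease, was at 0.999 and 0.597 at day 120 and 4.78 and 24.3 at term, mostly in term replicate 2, with a log2 fold change of 4.19 ± 0.98, adjusted p = 0.0147. MMP12, the macrophage elastase, had no count at day 120 and was at least 47 times as high at term, the floor being 3 counts over the group. ADAMTS2, which trims procollagen, rose by 0.5 ± 0.12, adjusted p = 0.0179. MMP16 and MMP14, membrane-bound proteases, fell (-2.47 ± 0.21 and -1.21 ± 0.17) and the protease inhibitor SERPINE2 (-1.3 ± 0.17) (adjusted p values 0.000172, 0.00152 and 0.00107). MMP2 had a log2 fold change of -0.58 ± 0.25, adjusted p = 0.126. MMP12 and MMP7 did not pass without day 120 replicate 1, with adjusted p values of 0.0679 and 0.0678. ADAMTS2, MMP12 and MMP7 did not pass without day 120 replicate 2, with adjusted p values of 0.13, 0.0797 and 0.109. ADAMTS2 did not pass without term replicate 1, with an adjusted p of 0.0685, and the log2 fold change was then 4.93 for MMP7. ADAMTS2, MMP12 and MMP7 did not pass without term replicate 2, with adjusted p values of 0.0658, 0.105 and 0.101, and the log2 fold change was then 2.59 for MMP7.

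Part of the genes for signals between mesenchyme and epithelium and for fetal growth fell. Of 40 morphogen pathway genes, 17 (12, 15, 16 and 11) fell and 2 (2, 2, 2 and 2) rose, with a median of -0.67. The WNT antagonist SFRP2 went from 19.8 and 12.7 to 0.984 and 0.818 (-4.17 ± 0.37, adjusted p = 0.000213) and the ligand gene BMP5 from 132 and 147 to 33.1 and 26.4 (-2.23 ± 0.18, adjusted p = 0.000151). Ligand SHH had a log2 fold change of -1.01 ± 0.53, adjusted p = 0.199 and the ligand BMP4 one of -0.86 ± 0.19, adjusted p = 0.0107. LGR5, a receptor that amplifies WNT signals, rose from 1.35 and 1.9 to 9.1 and 13.2 (2.78 ± 0.37, adjusted p = 0.00117), and so did ETV5, a factor downstream of FGF receptors, by 0.75 ± 0.12, adjusted p = 0.0024. Of 23 fetal growth genes, 12 (10, 9, 11 and 9) fell, with a median of -1.23. IGF2, the main fetal insulin-like growth factor, went from 1549 and 1964 to 194 and 126, the imprinted gene DLK1 from 53.7 and 87.6 to 5.53 and 4.71 and PEG10 from 147 and 93.3 to 11.7 and 6.05. All 3 were DEGs, with log2 fold changes of -3.46 ± 0.26, adjusted p = 0.000117 for IGF2, -3.79 ± 0.23, adjusted p = 5.18e-05 for DLK1 and -3.76 ± 0.35, adjusted p = 0.000256 for PEG10. LIN28B, which keeps cells in a fetal state, was barely detected at both ages. BMP4 did not pass without day 120 replicate 2, with an adjusted p of 0.0568. BMP4 did not pass without term replicate 2, with an adjusted p of 0.0511.

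Smooth muscle genes split. Of 19 tested, 7 (6, 2, 4 and 6) rose and 4 (0, 1, 3 and 0) fell. The muscarinic receptor CHRM3, which makes airway muscle contract, rose from 7.67 and 6.05 to 19.5 and 17.5 (1.43 ± 0.27, adjusted p = 0.00575), the intermediate filament gene DES from 56.5 and 46 to 155 and 97.7 (1.3 ± 0.24, adjusted p = 0.00507) and CNN1, calponin, by 1.3 ± 0.29, adjusted p = 0.0121. The contractile genes ACTA2 and MYH11 did not pass, at log2 fold changes of 0.26 ± 0.31 and -0.24 ± 0.17 (adjusted p values 0.57 and 0.339). SYNPO2, a filament-binding protein, fell (-1.11 ± 0.23), MYLK, the kinase of myosin light chain (-0.63 ± 0.17), PLN (-0.78 ± 0.24) and caldesmon, CALD1 (-0.54 ± 0.15), with adjusted p values of 0.00837, 0.0282, 0.0423 and 0.0268. Cartilage genes were low at both ages. In this list 7 (6, 5, 5 and 7) of 19 fell, among them COL9A3 from 5.67 and 14.3 to 0.548 and 0.701 (-4 ± 0.52, adjusted p = 0.00109), LECT1 from 7.31 and 13.7 to 0.864 and 1.11 (-3.41 ± 0.34, adjusted p = 0.00033), COL11A1 from 14.6 and 15.7 to 2.24 and 2.42 (-2.7 ± 0.19, adjusted p = 9.05e-05) and COL2A1 (-1.62 ± 0.29, adjusted p = 0.00412), whereas ACAN and SOX9 did not pass, at 0.55 ± 0.38 and 0.27 ± 0.27. Against them, COL9A2 rose from 0.117 and 0.434 to 2.88 and 3.8 (3.57 ± 0.64, adjusted p = 0.00444), and EPYC, a small proteoglycan, had no count at day 120 (0 and 0 at day 120 and 10.7 and 16.6 at term), so it was at least 323 times as high at term. CALD1, MYLK, PLN and SYNPO2 did not pass without day 120 replicate 1, with adjusted p values of 0.0929, 0.0723, 0.2 and 0.0689, and the log2 fold change was then 2.94 for COL9A2. CALD1, CHRM3, CNN1, MYLK and PLN did not pass without day 120 replicate 2, with adjusted p values of 0.0989, 0.056, 0.0973, 0.138 and 0.1, and the log2 fold change was then 4.8 for COL9A2 and -3.17 for COL9A3. CNN1 and PLN did not pass without term replicate 1, with adjusted p values of 0.0676 and 0.083. CALD1, MYLK, PLN and SYNPO2 did not pass without term replicate 2, with adjusted p values of 0.145, 0.124, 0.198 and 0.0607.

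Vascular genes moved in both directions, as did genes in general, of which 13.5% rose and 11.1% fell. Of 23 general endothelial genes, 1 (0, 0, 0 and 2) rose and 5 (2, 3, 7 and 3) fell, with a median of -0.2. PECAM1, CDH5 and VWF, which mark endothelium as a whole, did not pass, at log2 fold changes of -0.01 ± 0.21, -0.6 ± 0.2 and -0.2 ± 0.26, and PECAM1 was at 606 and 538 at day 120 and 696 and 437 at term. PLVAP, which forms the diaphragms of leaky fetal capillaries, was a DEG that went from 162 and 154 to 41.3 and 37.8 (-2 ± 0.14, adjusted p = 7.45e-05). EMCN, endomucin, fell (-1.05 ± 0.18, adjusted p = 0.00332), FLT1, a VEGF receptor (-1.11 ± 0.34, adjusted p = 0.0405), CD34 (-1.04 ± 0.24, adjusted p = 0.0142) and the receptor TIE1 (-0.73 ± 0.2, adjusted p = 0.0246), while ESAM, a junction protein, rose by 0.6 ± 0.19, adjusted p = 0.0471. Term replicate 1 was higher than term replicate 2 for 22 of the 23 endothelial genes tested. CD34, ESAM, FLT1 and TIE1 did not pass without day 120 replicate 1, with adjusted p values of 0.0579, 0.0916, 0.174 and 0.137. CD34, ESAM and FLT1 did not pass without day 120 replicate 2, with adjusted p values of 0.061, 0.228 and 0.0878. ESAM did not pass without term replicate 1, with an adjusted p of 0.255. FLT1 and TIE1 did not pass without term replicate 2, with adjusted p values of 0.199 and 0.127.

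Some genes of specialised capillary cells rose far. CA4, the carbonic anhydrase on the surface of lung capillaries, was measured at 0.646 and 0.543 at day 120 and 66 and 52.9 at term, with a log2 fold change of 6.64 ± 0.3, adjusted p = 3.66e-05, a DEG found at chr11:12352618-12360060. RGCC, also a DEG, went from 79.4 and 68.7 to 214 and 207 (1.51 ± 0.17, adjusted p = 0.000655) and PRX from 15.5 and 10.7 to 100 and 86.1 (2.83 ± 0.36, adjusted p = 0.00103). In this list of 16, 4 (4, 4, 4 and 4) rose and 2 (1, 2, 4 and 1) fell. Those that fell were APLN, a ligand of growing vessels, from 83 and 47.9 to 30.8 and 17 (-1.45 ± 0.31, adjusted p = 0.00984), and HPGD, which breaks down prostaglandins (-0.84 ± 0.14, adjusted p = 0.00288). The endothelin receptor EDNRB was at a log2 fold change of -0.26 ± 0.26, adjusted p = 0.495. FABP4, which alveolar macrophages also express and which is counted in both lists, was at 0.117 and 0.109 at day 120 and 6.23 and 81.6 at term (8.57 ± 1.39, adjusted p = 0.00388). APLN did not pass without day 120 replicate 1, with an adjusted p of 0.0691. FABP4 moved to a log2 fold change of 9.46 without term replicate 1. APLN did not pass without term replicate 2, with an adjusted p of 0.0524, and the log2 fold change was then 5.75 for FABP4.

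Pericyte genes fell in part. RGS5, a regulator of G protein signals in pericytes, went from 133 and 92.7 to 10.8 and 3.42 (-3.98 ± 0.48, adjusted p = 0.000831), the channel subunit ABCC9 from 151 and 183 to 69.4 and 57.6 (-1.4 ± 0.14, adjusted p = 0.000357), and PDGFRB, the receptor that holds pericytes to vessels, and KCNJ8 fell (-1.25 ± 0.24, adjusted p = 0.00644 and -0.84 ± 0.19, adjusted p = 0.0132). RGS5 and ABCC9 were DEGs. Of 10 pericyte genes 4 (4, 3, 6 and 3) fell and 1 (0, 0, 0 and 0) rose, the latter being HIGD1B at 0.84 ± 0.22, adjusted p = 0.0239. Among 14 arterial and venous genes 2 (2, 1, 1 and 2) rose, the Notch target HEY1 by 1.25 ± 0.35, adjusted p = 0.0297 and the leukocyte adhesion gene ICAM1 by 0.79 ± 0.12, adjusted p = 0.00206, and 1 (1, 1, 2 and 1) fell, the venous factor NR2F2 (-0.82 ± 0.17, adjusted p = 0.00926). Of 9 lymphatic genes, LYVE1 rose from 7.84 and 19.2 to 117 and 95.4 (2.97 ± 0.42, adjusted p = 0.00161) and PDPN by 1.25 ± 0.31, adjusted p = 0.0177, whereas MMRN1 fell (-1.1 ± 0.2, adjusted p = 0.00459) and the defining factor PROX1 had a log2 fold change of -0.12 ± 0.45, adjusted p = 0.874. PDPN is also a gene of alveolar type 1 cells and LYVE1 of some macrophages. HIGD1B did not pass without day 120 replicate 1, with an adjusted p of 0.0673. HEY1, HIGD1B, KCNJ8 and PDPN did not pass without day 120 replicate 2, with adjusted p values of 0.183, 0.169, 0.0978 and 0.123, and the log2 fold change was then 3.76 for LYVE1. HEY1, HIGD1B and PDPN did not pass without term replicate 1, with adjusted p values of 0.163, 0.0965 and 0.0655, and the log2 fold change was then -5.04 for RGS5. HIGD1B and KCNJ8 did not pass without term replicate 2, with adjusted p values of 0.101 and 0.0778, and the log2 fold change was then -3.38 for RGS5.

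Vasoactive genes had a median near 0. Of 35, 7 (8, 5, 6 and 6) rose and 7 (4, 6, 8 and 4) fell. The angiotensin system changed in opposite senses at its enzyme and its receptors. ACE, the converting enzyme of capillary endothelium, was a DEG that went from 13.2 and 11 to 49.7 and 53 (2.09 ± 0.21, adjusted p = 0.00035). AGTR2, the fetal form of the angiotensin receptor, went from 22.7 and 17 to 1.42 and 1.55 (-3.74 ± 0.64, adjusted p = 0.00368) and AGTR1 from 57.4 and 79.4 to 26.1 and 21.3 (-1.53 ± 0.2, adjusted p = 0.00107). The dilator peptide gene ADM, a DEG, rose from 31.7 and 30.8 to 216 and 177 (2.66 ± 0.25, adjusted p = 0.000256). TBXAS1, thromboxane synthase of platelets and macrophages, rose by 2.8 ± 0.57, adjusted p = 0.00814 and the thromboxane receptor TBXA2R fell (-1.36 ± 0.36, adjusted p = 0.0249). The nitric oxide synthase NOS3 and the constrictor EDN1 did not pass, at log2 fold changes of -0.0047 ± 0.34 and -0.11 ± 0.2 (adjusted p values 0.995 and 0.725). TBXA2R did not pass without day 120 replicate 1, with an adjusted p of 0.145, and the log2 fold change was then 4 for TBXAS1. TBXAS1 moved to a log2 fold change of 2.15 without day 120 replicate 2. TBXA2R did not pass without term replicate 2, with an adjusted p of 0.147.

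Of 21 vascular growth factors and guidance genes, 7 (7, 5, 7 and 7) fell and 2 (2, 1, 1 and 2) rose. VEGFA, the main growth factor for lung capillaries, was at 145 and 125 at day 120 and 165 and 123 at term, so that the ages overlapped, with a log2 fold change of 0.09 ± 0.18, adjusted p = 0.752. HGF fell from 28.6 and 33.3 to 8.03 and 8.04 (-1.95 ± 0.23, adjusted p = 0.000727) and the TEK ligand ANGPT1 from 87.5 and 90.9 to 44.7 and 33.4 (-1.19 ± 0.14, adjusted p = 0.000756), both DEGs. ROBO1, a guidance receptor, fell (-1.46 ± 0.2, adjusted p = 0.00129) and the chemokine receptor CXCR4 (-1.45 ± 0.22, adjusted p = 0.00204). ANGPTL4 rose by 1.41 ± 0.23, adjusted p = 0.00278 and SEMA3E by 0.98 ± 0.28, adjusted p = 0.0306. SEMA3E did not pass without day 120 replicate 2, with an adjusted p of 0.148. SEMA3E did not pass without term replicate 1, with an adjusted p of 0.13.

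**Figure D3:**
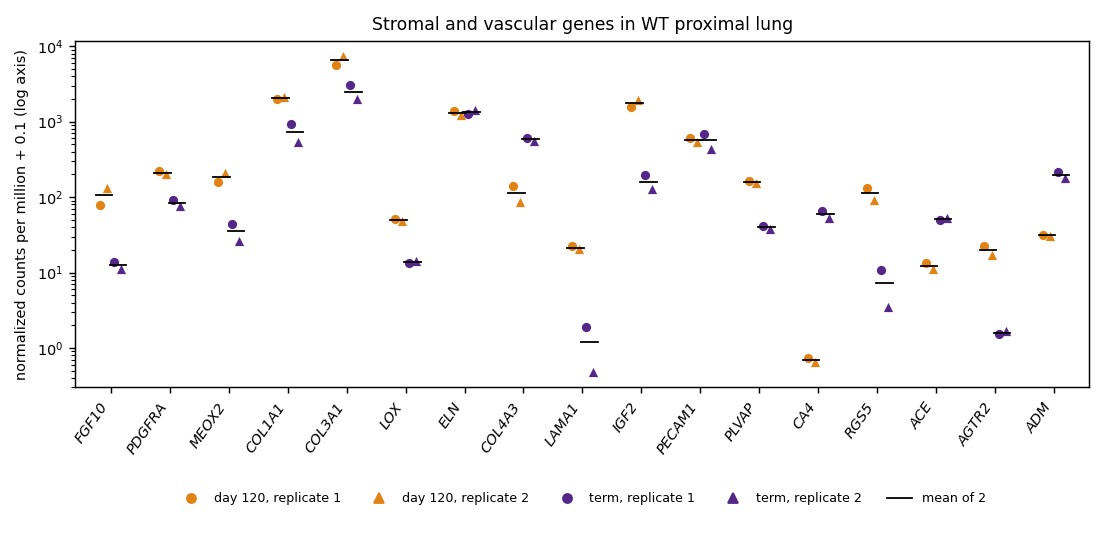
Normalized CPM + 0.1 (log axis) of stromal and vascular genes in each WT proximal library, with the same colours and symbols as for the airway genes. FGF10, MEOX2, LAMA1, IGF2, RGS5 and AGTR2 sit lower in both lambs, CA4, ACE and ADM higher, and ELN and PECAM1 overlap.

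Macrophage genes had the highest median of the immune lists. Of 27 tested, 20 (19, 19, 21 and 19) rose and 1 (1, 1, 1 and 1) fell, with a median log2 fold change of 3.25, against 13.5% of all genes that rose. The scavenger receptor MARCO of alveolar macrophages, at chr2:183240941-183279092, had 2 counts over both fetuses and 0 and 0.0543 at day 120 and 251 and 305 CPM at term by library, so that the term over day 120 ratio was 9870.0 (95% counting interval 2730.0 to 81500.0). ADGRE1, the F4/80 antigen, went from 0 and 0.109 to 61.5 and 112. The iron transporter SLC11A1 was at 0.411 and 0.0543 at day 120 and 17.5 and 50.2 at term, with a log2 fold change of 7.19 ± 1.22, adjusted p = 0.00351. All of these were nearly absent in both fetuses. CD68, a lysosomal protein of all macrophages, was already present at day 120 and went from 14.7 and 14.9 to 47 and 138 (2.64 ± 0.45, adjusted p = 0.00344). The complement gene C1QA went from 23.6 and 17.1 to 242 and 293 (3.72 ± 0.42, adjusted p = 0.000599) and CSF1R, the receptor that keeps macrophages alive, from 22.5 and 21.8 to 76 and 103 (2.01 ± 0.19, adjusted p = 0.000284). The member that fell was CSF2RB, the beta chain of the GM-CSF receptor, from 71.1 and 82.9 to 43.7 and 35 (-0.97 ± 0.18, adjusted p = 0.0048). ADGRE1 moved to a log2 fold change of 9.61 without day 120 replicate 1. SLC11A1 moved to a log2 fold change of 6.36 without day 120 replicate 2. CD68 and SLC11A1 moved to log2 fold changes of 1.67 and 6.24 without term replicate 2.

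Neutrophil and monocyte genes rose as well, 14 (11, 8, 13 and 9) of 22 tested, with a median of 3.08. The integrin subunits ITGB2 and ITGAM were DEGs, at 4.2 and 2.82 at day 120 and 65.7 and 107 at term for ITGB2 and 1.38 and 0.732 at day 120 and 16.5 and 49.8 at term for ITGAM. Their log2 fold changes were 4.62 ± 0.32, adjusted p = 7.45e-05 and 4.97 ± 0.58, adjusted p = 0.000705. The calgranulins S100A8 and S100A9 were much higher in term replicate 2 than in replicate 1, at 3.7 and 3.15 at day 120 and 19.1 and 109 at term and 3.7 and 2.28 at day 120 and 14.2 and 76.6 at term. They changed by 4.22 ± 0.68, adjusted p = 0.00278 and 3.93 ± 0.69, adjusted p = 0.0041. CSF3R, the receptor for the neutrophil growth factor, went from 0.353 and 0.488 to 10.5 and 15.7 (4.95 ± 0.73, adjusted p = 0.00188). The granule protein genes MPO and ELANE did not pass, with MPO at 1.5 and 1.95 at day 120 and 0.436 and 0.526 at term and ELANE at 0.823 and 0.76 at day 120 and 0.719 and 0.701 at term. S100A8 and S100A9 moved to log2 fold changes of 4.99 and 4.68 without term replicate 1. ITGAM, S100A8 and S100A9 moved to log2 fold changes of 3.97, 2.48 and 2.25 without term replicate 2.

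Of 35 class II and dendritic cell genes listed, 17 were tested and 12 (7, 5, 8 and 4) rose. CD74, the invariant chain, went from 145 and 76.6 to 333 and 463 (1.85 ± 0.42, adjusted p = 0.0132) and CIITA, the switch of class II genes, from 3.11 and 1.6 to 8.74 and 9.58 (1.96 ± 0.45, adjusted p = 0.0133). The costimulatory gene CD86 rose by 4.08 ± 0.58, adjusted p = 0.00161, CD1E by 3.27 ± 0.76, adjusted p = 0.0138 and CD83 by 2.4 ± 0.46, adjusted p = 0.00581. Whichever library was left out, fewer of these genes passed. CD1E did not pass without day 120 replicate 1, with an adjusted p of 0.0543. CD1E, CD74, CD83 and CIITA did not pass without day 120 replicate 2, with adjusted p values of 0.105, 0.0963, 0.0523 and 0.0968. CD1E moved to a log2 fold change of 3.94 without term replicate 1. CD1E, CD74 and CIITA did not pass without term replicate 2, with adjusted p values of 0.128, 0.063 and 0.0643, and the log2 fold change was then 1.71 for CD83, 3.45 for CD86 and 2 for CD1E.

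Lymphocyte genes were low. Of 27 T cell genes 6 (4, 2, 3 and 4) rose. The invariant chains CD3E and CD3D did not pass, at 5.2 and 4.48 at day 120 and 9.27 and 8.37 at term for CD3E and 1.23 and 0.868 at day 120 and 3.33 and 3.4 at term for CD3D. Their log2 fold changes were 0.87 ± 0.42, adjusted p = 0.167 and 1.68 ± 0.59, adjusted p = 0.0664. IL7R rose by 2.8 ± 0.6, adjusted p = 0.00986, CD8B by 1.93 ± 0.43, adjusted p = 0.0112 and the adaptor SKAP1 by 1.07 ± 0.26, adjusted p = 0.0163. Of 21 cytotoxic and natural killer genes listed, 8 passed the filter and 3 (1, 2, 3 and 1) rose, NKG7 at 0.176 and 0.543 at day 120 and 2.14 and 5.43 at term (3.38 ± 0.88, adjusted p = 0.0228), CD244 by 5.85 ± 0.94, adjusted p = 0.00274 and IL2RB by 2.59 ± 0.65, adjusted p = 0.0196, with PRF1 at a log2 fold change of 2.74 ± 1.08, adjusted p = 0.0964. NCR1, the defining receptor of natural killer cells, was at 0 in 3 of the 4 libraries. CD8B, IL2RB, NKG7 and SKAP1 did not pass without day 120 replicate 1, with adjusted p values of 0.0506, 0.0564, 0.125 and 0.0876. CD8B, IL2RB, IL7R, NKG7 and SKAP1 did not pass without day 120 replicate 2, with adjusted p values of 0.0844, 0.132, 0.0832, 0.0586 and 0.0858, and the log2 fold change was then 4.41 for NKG7. SKAP1 did not pass without term replicate 1, with an adjusted p of 0.104. IL2RB, IL7R and NKG7 did not pass without term replicate 2, with adjusted p values of 0.0714, 0.0731 and 0.15, and the log2 fold change was then 5.15 for CD244, 1.97 for IL7R and 2.56 for NKG7.

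Among 21 B and plasma cell genes 5 (4, 3, 4 and 3) rose and 3 (2, 2, 3 and 2) fell. The largest rise was that of CR2, complement receptor 2 of B cells and follicular dendritic cells, at 0.294 and 0.271 at day 120 and 50.3 and 68.5 at term, with a log2 fold change of 7.7 ± 0.88, adjusted p = 0.000621 and a place at chr12:4721253-4771729. The B cell receptor subunit CD79A went from 0.588 and 0.705 to 4.82 and 4.12 (2.78 ± 0.43, adjusted p = 0.00236) and the kinase BLK rose by 3.89 ± 1.18, adjusted p = 0.0449, while MS4A1, which encodes CD20, stayed under 1 CPM in all 4 libraries. JCHAIN, the joining chain of secreted antibodies, was at 7.52 and 7.54 at day 120 and 6.88 and 7.87 at term, with a log2 fold change of -0.03 ± 0.3, adjusted p = 0.953. XBP1, which secretory cells of many kinds use, rose by 0.59 ± 0.12, adjusted p = 0.00811 and BANK1 by 1.83 ± 0.47, adjusted p = 0.0217. CD22 fell from 52.3 and 25.2 to 9.61 and 5.61 (-2.35 ± 0.36, adjusted p = 0.00221), PRDM1 (-1.38 ± 0.22, adjusted p = 0.00288) and EBF1, also a mesenchymal gene (-1.32 ± 0.35, adjusted p = 0.0228). Of the mast cell genes, KIT and TPSB2 fell. KIT, the stem cell factor receptor, went from 55.6 and 53.9 to 15.7 and 8.68 (-2.17 ± 0.24, adjusted p = 0.000518) and the tryptase TPSB2 from 24.8 and 25.7 to 0.992 and 4.4 (-3.22 ± 0.86, adjusted p = 0.0247), and the protease CPA3 stayed under 1 CPM. Of 9 tested 2 (1, 1, 1 and 2) fell. BANK1, EBF1 and TPSB2 did not pass without day 120 replicate 1, with adjusted p values of 0.0559, 0.0847 and 0.0705, and the log2 fold change was then -1.72 for CD22. BANK1, BLK, EBF1 and TPSB2 did not pass without day 120 replicate 2, with adjusted p values of 0.142, 0.129, 0.0856 and 0.0844, and the log2 fold change was then 2.88 for BLK. BLK and TPSB2 did not pass without term replicate 1, with adjusted p values of 0.136 and 0.0898, and the log2 fold change was then -2.51 for TPSB2. BANK1, BLK and EBF1 did not pass without term replicate 2, with adjusted p values of 0.119, 0.141 and 0.134, and the log2 fold change was then -4.66 for TPSB2.

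Soluble and innate defence genes rose in many families. Of 26 complement genes 14 (15, 9, 13 and 11) rose and 2 (1, 1, 2 and 2) fell. C3, the centre of the cascade, went from 213 and 199 to 421 and 805 (1.57 ± 0.27, adjusted p = 0.00384) and factor B, CFB, by 1.81 ± 0.43, adjusted p = 0.0147. The ficolin FCN1 went from 0.499 and 0.326 to 18.6 and 43.7 (6.24 ± 0.53, adjusted p = 0.000279) and properdin, CFP, from 2.44 and 1.33 to 43.5 and 59.8 (4.78 ± 0.45, adjusted p = 0.000259), both DEGs that myeloid cells express, and CFD rose by 3.6 ± 0.75, adjusted p = 0.00857. The collectin COLEC12 was among those that fell (-1.06 ± 0.17, adjusted p = 0.0028). Of 34 cytokines and chemokines 12 (8, 5, 9 and 7) rose. IL1B was at 0.881 and 0.787 at day 120 and 7.18 and 13.1 at term and TNF at 0.353 and 0.271 at day 120 and 3.67 and 3.47 at term, both low in absolute terms and higher in each lamb than in each fetus, with log2 fold changes of 3.6 ± 0.61, adjusted p = 0.00352 and 3.51 ± 0.54, adjusted p = 0.00222. The receptor antagonist IL1RN rose by 3.93 ± 0.62, adjusted p = 0.00261 and TNFSF13B by 3.53 ± 0.61, adjusted p = 0.00378. CXCL8, the neutrophil attractant, overlapped between ages (0.64 ± 0.57, adjusted p = 0.442), and the alarmin IL33 fell from 245 and 264 to 138 and 111 (-1.03 ± 0.21, adjusted p = 0.00738). CSF2, which encodes GM-CSF, had no count at day 120 and was at least 40.8 times as high at term, and CCL19, likewise without a count at day 120, at least 17 times. CCL19 and CSF2 did not pass without day 120 replicate 1, with adjusted p values of 0.137 and 0.0558. CCL19, CFB, CFD and CSF2 did not pass without day 120 replicate 2, with adjusted p values of 0.156, 0.112, 0.0763 and 0.0663. CCL19 did not pass without term replicate 1, with an adjusted p of 0.0647. CCL19, CFB, CSF2 and IL33 did not pass without term replicate 2, with adjusted p values of 0.212, 0.0695, 0.0704 and 0.0542, and the log2 fold change was then 5.49 for FCN1 and 2.79 for TNFSF13B.

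Interferon-induced genes rose in 18 (19, 7, 11 and 21) of 33 cases, with a median of 1.22. Here term replicate 1 tended to be the higher lamb and day 120 replicate 1 the higher fetus. MX1, an antiviral GTPase, was at 42.4 and 19.3 at day 120 and 100 and 44 at term and did not pass (1.22 ± 0.41, adjusted p = 0.0564), whereas its relative MX2 went from 1.2 and 1.49 to 37.2 and 16.5 (4.31 ± 0.61, adjusted p = 0.00158). ISG15 went from 7.46 and 3.42 to 19.9 and 11.1 (1.51 ± 0.41, adjusted p = 0.0272), HERC6 rose by 3.22 ± 0.6, adjusted p = 0.00529 and OAS2 by 2.81 ± 0.59, adjusted p = 0.00884. IFIT5 fell (-0.53 ± 0.12, adjusted p = 0.0138). The count of genes that rose varied from 7 to 21 with the library left out. Of 24 pattern recognition genes 13 (7, 3, 10 and 4) rose. The endotoxin receptor TLR4 went from 11.5 and 8.9 to 24.8 and 30 (1.43 ± 0.23, adjusted p = 0.00279) and TLR2 from 14.2 and 9.82 to 28.8 and 28.7 (1.26 ± 0.31, adjusted p = 0.0188), while TLR1 rose by 1.71 ± 0.33, adjusted p = 0.00644 and CLEC7A by 2.05 ± 0.57, adjusted p = 0.0287. CLEC7A and IFIT5 did not pass without day 120 replicate 1, with adjusted p values of 0.0931 and 0.0631, and the log2 fold change was then 2.18 for ISG15 and 3.63 for OAS2. CLEC7A, HERC6, IFIT5, ISG15, OAS2, TLR1 and TLR2 did not pass without day 120 replicate 2, with adjusted p values of 0.163, 0.0531, 0.0669, 0.155, 0.0653, 0.0572 and 0.135. ISG15 and TLR2 did not pass without term replicate 1, with adjusted p values of 0.158 and 0.0526, and the log2 fold change was then 2.68 for CLEC7A and 3.61 for MX2. CLEC7A, IFIT5, TLR1 and TLR2 did not pass without term replicate 2, with adjusted p values of 0.296, 0.0861, 0.0564 and 0.0626, and the log2 fold change was then 0.92 for CLEC7A.

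**Figure D4:**
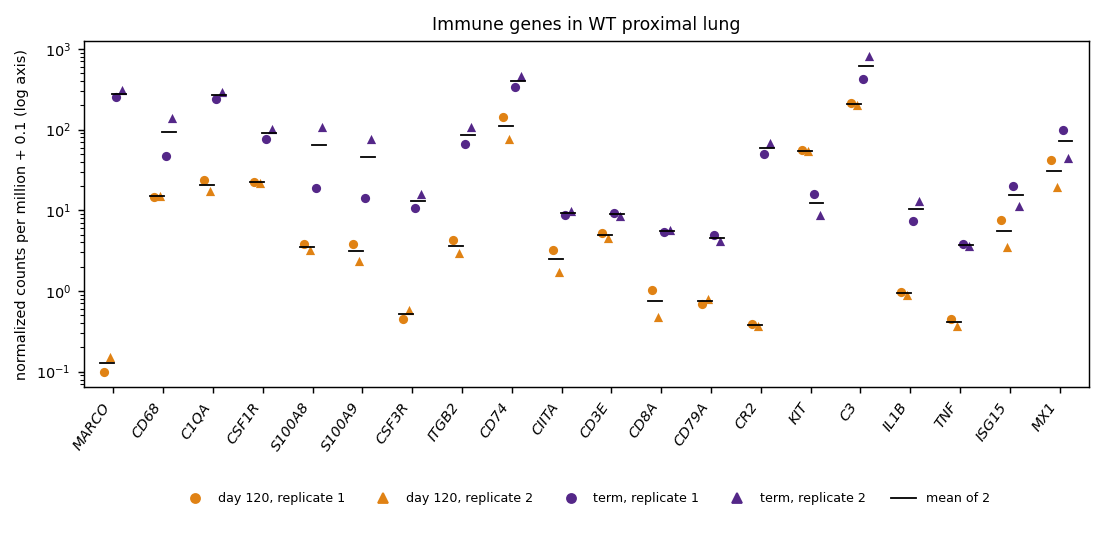
Normalized CPM + 0.1 (log axis) of immune genes in each WT proximal library, with the same colours and symbols as for the airway genes. MARCO goes from 0 and 0.0543 to 251 and 305, the S100A8 and S100A9 triangles at term lie well above the circles, the CD3E points lie close together and KIT is lower in both lambs.

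Markers of other cells moved between the same groups, and their part in the results above was not tested. Of 14 alveolar type 2 genes 12 (11, 11, 12 and 11) rose. Their sum was 6350.0 and 7473 CPM at day 120 and 24010.0 and 30010.0 CPM at term. Of 15 type 1 genes 9 (10, 6, 7 and 8) rose, with a sum of 5485 and 4220.0 CPM at day 120 and 10140.0 and 8843 CPM at term. SFTPC rose by 2.04 ± 0.34, adjusted p = 0.00309, SFTPB by 2.22 ± 0.34, adjusted p = 0.00217 and SFTPA1 by 3.4 ± 0.28, adjusted p = 0.000152. LAMP3, a lysosomal marker of these cells, rose by 0.97 ± 0.18, adjusted p = 0.005. NAPSA and ABCA3, which process and load surfactant, rose by 3.65 ± 0.41, adjusted p = 0.000567 and 2.52 ± 0.27, adjusted p = 0.00045. The type 1 cell receptor AGER rose by 1.98 ± 0.27, adjusted p = 0.00139, HOPX by 1.65 ± 0.21, adjusted p = 0.00108 and the water channel AQP5 by 1.97 ± 0.28, adjusted p = 0.0015. Of 23 erythroid genes 11 (5, 10, 7 and 5) fell and 3 (2, 1, 1 and 2) rose. ALAS2, the haem enzyme of red cell precursors, went from 75.6 and 59.4 to 2.08 and 0.217 (-5.88 ± 0.78, adjusted p = 0.00121), SLC4A1 from 10.2 and 3.01 to 0.171 and 0.134 (-5.42 ± 0.85, adjusted p = 0.00247), ANK1 fell (-1.66 ± 0.34, adjusted p = 0.0084), and XK and BPGM, which other cells share, were among those that rose, by 1.48 ± 0.16 and 0.53 ± 0.15. ANK1 and BPGM did not pass without day 120 replicate 1, with adjusted p values of 0.0625 and 0.166, and the log2 fold change was then -4.28 for SLC4A1. BPGM did not pass without day 120 replicate 2, with an adjusted p of 0.107, and the log2 fold change was then -6.04 for SLC4A1. BPGM did not pass without term replicate 1, with an adjusted p of 0.0973, and the log2 fold change was then -8.26 for ALAS2. ANK1 and BPGM did not pass without term replicate 2, with adjusted p values of 0.0594 and 0.124, and the log2 fold change was then -5.01 for ALAS2.

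Markers of tissues that could enter a sample at its edge were mostly low. Of 6 cardiac genes tested 2 (0, 0, 1 and 0) fell, PLN and RYR2 (log2 fold change -1.13 ± 0.27, adjusted p = 0.0173), which smooth muscle also expresses, and the atrial gene MYL7 was at 0 in all 4 libraries. Their sum was 60 and 53.4 CPM at day 120 and 34.1 and 26.8 CPM at term. Of 5 skeletal muscle genes 1 (1, 0, 0 and 0) fell, TNNT3 (-1.28 ± 0.37, adjusted p = 0.0331), with a sum of 14.9 and 20.3 CPM at day 120 and 14.7 and 17.1 CPM at term, and ACTA1 and CKM were under 2 CPM. Of 7 mesothelial genes KRT7, which lung epithelium shares, rose by 1.62 ± 0.11, adjusted p = 6.39e-05 and 2 (1, 0, 0 and 1) fell, UPK1B at 0.588 and 0.922 at day 120 and 0.0513 and 0.159 at term and LRRN4 at 0 and 1.55 at day 120 and 0.0342 and 0.0167 at term, with a sum of 88.2 and 85.6 CPM at day 120 and 243 and 265 CPM at term and the defining genes UPK3B and MSLN under 5 CPM. Of 10 nerve and glia genes 1 (1, 2, 1 and 1) fell, CDR1, with a sum of 63.5 and 76.6 CPM at day 120 and 58 and 24.8 CPM at term, and the glial factor SOX10 was under 1 CPM. Of 6 liver genes 2 (0, 1, 1 and 0) rose and 1 (1, 0, 1 and 0) fell, with ALB at 1.53 and 3.31 at day 120 and 7.25 and 23.3 at term (2.66 ± 0.6, adjusted p = 0.0122), TTR at 0.0588 and 0.217 at day 120 and 1.73 and 2.08 at term (3.75 ± 1.01, adjusted p = 0.0256) and APOA1 at 243 and 265 at day 120 and 161 and 105 at term (-0.93 ± 0.22, adjusted p = 0.0136), and a sum of 252 and 276 CPM at day 120 and 177 and 137 CPM at term. ALB, RYR2, TTR and UPK1B did not pass without day 120 replicate 1, with adjusted p values of 0.0811, 0.0929, 0.138 and 0.0519, and the log2 fold change was then -5.8 for LRRN4 and 3.12 for TTR. APOA1, LRRN4, RYR2, TNNT3, TTR and UPK1B did not pass without day 120 replicate 2, with adjusted p values of 0.0763, 0.472, 0.0528, 0.234, 0.0718 and 0.128, and the log2 fold change was then 3.32 for ALB. LRRN4, TNNT3, TTR and UPK1B did not pass without term replicate 1, with adjusted p values of 0.137, 0.147, 0.0772 and 0.135, and the log2 fold change was then 3.27 for ALB. ALB, APOA1, LRRN4, RYR2, TNNT3 and TTR did not pass without term replicate 2, with adjusted p values of 0.105, 0.0744, 0.21, 0.102, 0.0663 and 0.127, and the log2 fold change was then -3.8 for UPK1B and 1.58 for ALB.

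Glucocorticoid-responsive and antioxidant genes rose in part. Of 15 glucocorticoid-responsive genes 11 (11, 10, 10 and 11) rose and 1 (1, 1, 1 and 1) fell, with a median of 1.26. FKBP5, the chaperone that the hormone induces, went from 8.72 and 7.54 to 77.3 and 194 (4.06 ± 0.39, adjusted p = 0.000288) and KLF9 from 49.9 and 59.3 to 301 and 256 (2.35 ± 0.14, adjusted p = 5.18e-05). ZBTB16 rose by 3.27 ± 0.52, adjusted p = 0.0026 and TSC22D3 by 1.06 ± 0.13, adjusted p = 0.000727, while NR3C1, the receptor itself, fell from 149 and 131 to 72.2 and 53.8 (-1.15 ± 0.21, adjusted p = 0.00514). Of 27 antioxidant and oxidase genes 17 (10, 10, 14 and 11) rose and 1 (1, 0, 2 and 1) fell. The peroxiredoxin PRDX6 of alveolar cells went from 877 and 873 to 4092 and 3459 (2.11 ± 0.16, adjusted p = 9.44e-05), GPX1 rose by 2.33 ± 0.29, adjusted p = 0.000914, SRXN1 by 2.44 ± 0.25, adjusted p = 0.000372 and GPX3 by 1.6 ± 0.36, adjusted p = 0.0126, whereas PRDX4 fell (-0.5 ± 0.1, adjusted p = 0.00824). SOD3, which protects the space outside cells, had a log2 fold change of 0.59 ± 0.31, adjusted p = 0.194. GPX3 did not pass without day 120 replicate 1, with an adjusted p of 0.0867, and the log2 fold change was then 4.21 for ZBTB16. PRDX4 did not pass without day 120 replicate 2, with an adjusted p of 0.0709. GPX3 did not pass without term replicate 2, with an adjusted p of 0.0542, and the log2 fold change was then 3.25 for FKBP5 and 0.8 for GPX3.

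Of 19 hypoxia genes 5 (3, 3, 5 and 3) rose and 3 (2, 2, 2 and 4) fell. The prolyl hydroxylase EGLN3 did not pass (-0.27 ± 0.37, adjusted p = 0.634), nor did CA9 (1.14 ± 0.41, adjusted p = 0.0735). The glycolytic regulators PFKFB3 and PFKFB4 rose by 2.17 ± 0.4 and 2.05 ± 0.29, LDHA by 0.92 ± 0.29 and CA12, high in term replicate 2 only, by 4.23 ± 1.29, and ANKRD37, PDK1 and KDM3A fell (-1.69 ± 0.46, -0.81 ± 0.14 and -0.59 ± 0.11.) Of 19 immediate early and heat shock genes 5 (2, 1, 3 and 5) rose and 1 (1, 0, 1 and 0) fell. FOS, which also responds to handling of tissue, went from 8.17 and 4.23 to 40.9 and 16.7 (2.22 ± 0.49, adjusted p = 0.0111), ATF3 rose by 3.07 ± 0.55, adjusted p = 0.00468, EGR2 by 1.79 ± 0.42, adjusted p = 0.0142, JUNB by 1.64 ± 0.5, adjusted p = 0.0426 and GADD45A by 0.61 ± 0.13, adjusted p = 0.00957, and the chaperone DNAJB1 fell (-0.52 ± 0.14, adjusted p = 0.0224). EGR1 and HSPA1A had log2 fold changes of 1.01 ± 0.43, adjusted p = 0.121 and -1.44 ± 0.58, adjusted p = 0.102. The proliferation markers MKI67 and TOP2A overlapped between ages, at 50.8 and 49.5 at day 120 and 57.9 and 46.1 at term for MKI67 and 93.4 and 84.7 at day 120 and 88.4 and 55.8 at term for TOP2A, and 6 (3, 0, 2 and 9) of 35 cell cycle genes rose, among them CCNE1 by 1.13 ± 0.35, adjusted p = 0.0419, BUB1 by 0.81 ± 0.18, adjusted p = 0.0104 and CDC20 by 0.79 ± 0.16, adjusted p = 0.00782. Without term replicate 1, 6 cell cycle genes fell. ANKRD37, CA12, CCNE1, EGR2, GADD45A, JUNB and LDHA did not pass without day 120 replicate 1, with adjusted p values of 0.0703, 0.143, 0.209, 0.0756, 0.062, 0.173 and 0.202. ANKRD37, BUB1, CA12, CCNE1, CDC20, DNAJB1, EGR2, FOS, GADD45A, JUNB and LDHA did not pass without day 120 replicate 2, with adjusted p values of 0.115, 0.0781, 0.2, 0.0589, 0.0521, 0.163, 0.0859, 0.0875, 0.0504, 0.148 and 0.112. ANKRD37, BUB1, FOS and JUNB did not pass without term replicate 1, with adjusted p values of 0.121, 0.0515, 0.067 and 0.111, and the log2 fold change was then 1.72 for ATF3, 5.17 for CA12 and 1.43 for FOS. CA12, CCNE1, DNAJB1, EGR2, JUNB and LDHA did not pass without term replicate 2, with adjusted p values of 0.791, 0.235, 0.144, 0.111, 0.104 and 0.276, and the log2 fold change was then -2.36 for ANKRD37, 3.75 for ATF3, 0.49 for CA12 and 1.04 for EGR2.

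Over all genes, the 5 leading rises among DEGs were MARCO, ADGRE1, SCGB1A1, CR2 and SDS, ranked by log2 fold change with a minimum mean log2 CPM of 1. SDS, a serine dehydratase at chr17:60681920-60689944, went from 0.529 and 0.678 to 76.5 and 49.5 (6.7 ± 0.4, adjusted p = 5.18e-05), and ADGRE1 lies at chr5:15144105-15223883. The 5 leading falls were CDR1, TRIM10, LOC105605956, COL8A2 and LOC105605070. CDR1, at chrX:89397004-89399137, went from 32.5 and 57.9 to 0.171 and 0.0501 (-8.65 ± 0.49, adjusted p = 4.22e-05), in a locus known for a circular antisense transcript, and without a stated strand setting the gene and its antisense partner cannot be told apart. TRIM10, an erythroid gene at chr20:27764340-27774608, went from 13.9 and 7.16 to 0.376 and 0.384 (-4.78 ± 0.42, adjusted p = 0.00021). COL8A2, at chr1:10756459-10761140, went from 40.4 and 31.5 to 1.38 and 2 (-4.41 ± 0.27, adjusted p = 5.28e-05) while its partner chain COL8A1 rose. LOC105605956, on an unplaced scaffold, went from 34.6 and 45.9 to 1.81 and 1.59 (-4.56 ± 0.39, adjusted p = 0.000172) and LOC105605070, at chr25:43974483-43976399, from 19.5 and 15.7 to 0.736 and 1.19 (-4.19 ± 0.32, adjusted p = 0.000109), and neither has a name in the files. Members of families with near-identical copies, such as the S100, secretoglobin and class II genes, may share reads. CDR1 moved to a log2 fold change of -9.73 without term replicate 1. CDR1 moved to a log2 fold change of -8.02 without term replicate 2.

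The same 4 animals also gave distal lung, where the change between the ages could be set beside the proximal one. Over 18715 genes the difference between the proximal and the distal change passed for 1, or 0.00534% (edgeR interaction term), and 456 genes had an unadjusted p under 0.05. With the animal as a block 6 genes passed, PRG4, LRRN4, SFRP4, DLK1, LOC105606599 and LOC101123672. For the other genes the difference did not pass, which does not show that the regions changed alike. The gene that passed in the reported fit was PRG4, lubricin, at chr12:65400357-65416683. With all WT libraries scaled together it was at 2.66 and 4.25 at day 120 and 0.939 and 0.566 at term in proximal lung and 0.907 and 0.742 at day 120 and 10.6 and 19.5 at term in distal lung, a difference of -6.39 ± 0.65, adjusted p = 0.00176. Both lambs were below both fetuses in proximal lung and above both in distal lung, and the proximal change by itself was -2.2 ± 0.48, adjusted p = 0.0112. The difference did not pass without distal day 120 replicate 2 (-6.26, adjusted p = 0.0574). Over the genes tested in both regions, and without a test, the median log2 fold change of macrophage genes was 3.25 in proximal and 2.6 in distal lung, that of ion transport genes 1.29 in proximal and 1.52 in distal lung, that of secretory genes 1.13 in proximal and 2.47 in distal lung and that of collagens -1.31 in proximal and -0.76 in distal lung. For the proximal change taken alone, the following held. PRG4 did not pass without day 120 replicate 2, with an adjusted p of 0.0798. PRG4 did not pass without term replicate 2, with an adjusted p of 0.0837.

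The change in WT proximal lung was also set against that of CF proximal lung, where the CF libraries held 93595123 and 101116915 reads at day 120 and 118526165 and 117316905 at term. Over 20344 genes the difference between the changes passed for 362, or 1.78%, 243 with a more positive change in WT and 119 with a more negative one. The median difference over all genes was 0.17. The count ranged from 55 without WT day 120 replicate 2 to 3837 without CF day 120 replicate 1, where the balance turned, with 1490 more positive and 2347 more negative in WT. The values below were scaled over all proximal libraries of both genotypes.

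Cell cycle genes differed between the genotypes. Of 35 genes, 25 passed, all with a more positive change in WT, and the median log2 fold changes were 0.14 in WT and -2.41 in CF lung. The count was 14 without WT day 120 replicate 2 and 17 to 29 with any other library left out. TOP2A, a replication enzyme, was at 93.6 and 86.4 at day 120 and 90.2 and 56 at term in WT and 131 and 50 at day 120 and 7.27 and 5.7 at term in CF lung, a difference in log2 fold change of 3.5 ± 0.5, adjusted p = 0.00407. CDC20, an activator of mitotic exit, was at 12.6 and 12.9 at day 120 and 22.6 and 21.5 at term in WT and 15.8 and 30.2 at day 120 and 2.01 and 2.41 at term in CF lung (4.17 ± 0.44, adjusted p = 0.00073), and BUB1 differed by 2.6 ± 0.32, adjusted p = 0.00156. For these genes the CF term animals were far below the CF fetuses, and the WT lambs did not fall below the WT fetuses, apart from TOP2A in term replicate 2. TOP2A moved to a difference of 2.65 without CF day 120 replicate 1.

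Medians of lists are given side by side for WT and CF lung and were not tested. Of 26 ion and fluid transport genes 3 passed, all with more positive changes in WT, among them SCNN1B and ANO1. In CF lung SCNN1B was at 16.4 and 42 at day 120 and 37.1 and 54.5 at term, so that the CF term animals stayed near the higher CF fetus, and the difference was 3.01 ± 0.63, adjusted p = 0.0281. For the chloride channel ANO1 the difference was 1.22 ± 0.28, adjusted p = 0.0435. Of 37 ciliated genes 1 passed, the tubulin TUBB4B (1.52 ± 0.36, adjusted p = 0.0481), and the medians were 1.02 in WT and 0.04 in CF lung. In the stroma the smooth muscle genes MYH11 and CNN1 had more positive changes in WT, by 1.9 ± 0.3, adjusted p = 0.00696 and 3.36 ± 0.61, adjusted p = 0.0138. MYH11 was at 325 and 255 at day 120 and 63.8 and 68.5 at term in CF lung. The mesenchymal genes TCF21 and MEOX2 had more negative changes in WT (-2.53 ± 0.43, adjusted p = 0.01 and -2.44 ± 0.37, adjusted p = 0.00641), and TCF21 was at 163 and 183 at day 120 and 373 and 581 at term in CF lung. BMP5 had a difference of -2.16 ± 0.33, adjusted p = 0.0066, and the protease MMP7 one of 6.04 ± 1.19, adjusted p = 0.0215. ANO1 did not pass with RLE scaling, no filter or thinned libraries, nor TUBB4B with no filter, thinned libraries or the replicate number as a block. Without CF day 120 replicate 1, 4 ion and fluid transport genes had a more positive and 2 a more negative change in WT, and 6 ciliated genes a more positive one. SCNN1B moved to a difference of 2.19 without CF day 120 replicate 2. ANO1 did not pass without CF term replicate 1, with an adjusted p of 0.0582, and the difference was then 4.17 for CNN1. ANO1, MMP7, SCNN1B and TUBB4B did not pass without CF term replicate 2, with adjusted p values of 0.0733, 0.11, 0.0664 and 0.167. ANO1, MMP7, SCNN1B and TUBB4B did not pass without WT day 120 replicate 1, with adjusted p values of 0.155, 0.0816, 0.0887 and 0.095. ANO1, CNN1, MMP7, MYH11, SCNN1B, TCF21 and TUBB4B did not pass without WT day 120 replicate 2, with adjusted p values of 0.162, 0.101, 0.149, 0.0649, 0.162, 0.0667 and 0.253. ANO1, CNN1, SCNN1B and TUBB4B did not pass without WT term replicate 1, with adjusted p values of 0.0803, 0.0516, 0.0752 and 0.0752, and the difference was then 6.78 for MMP7. ANO1, MMP7, SCNN1B, TCF21 and TUBB4B did not pass without WT term replicate 2, with adjusted p values of 0.179, 0.109, 0.0848, 0.0543 and 0.202, and the difference was then 4.46 for MMP7.

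Of the vascular genes LYVE1 was at 4.28 and 3.98 at day 120 and 157 and 1091 at term in CF lung (difference -4.27 ± 0.91, adjusted p = 0.0318), EDN1 differed (-3.09 ± 0.68, adjusted p = 0.0363), AGTR1 (-2.08 ± 0.31, adjusted p = 0.00537) and CXCR4 (-1.68 ± 0.37, adjusted p = 0.0344). Not all vascular differences were negative, since of 35 vasoactive genes 1 had a more positive and 2 a more negative change in WT. Among immune genes CD68 was at 31 and 33.8 at day 120 and 27.6 and 38.9 at term in CF lung and had a more positive change in WT, with a difference of 2.6 ± 0.56, adjusted p = 0.0327. ITGB2 was at 2.86 and 2.67 at day 120 and 8.69 and 16.7 at term in CF lung, higher in both CF term animals than in both CF fetuses, and its change was also more positive in WT (2.42 ± 0.53, adjusted p = 0.0347). C3 had a difference of 2.2 ± 0.45, adjusted p = 0.0253, COLEC12 one of -1.48 ± 0.3, adjusted p = 0.0253 and JCHAIN one of -4.68 ± 1.08, adjusted p = 0.0435. Of 27 macrophage genes CD68 and FABP4 passed, and the medians were 3.25 in WT and 1.48 in CF lung. The difference for FABP4, at 0.118 and 0.111 at day 120 and 6.35 and 81.8 at term in WT and 0.0985 and 4.61 at day 120 and 0.214 and 0.121 at term in CF lung, had an adjusted p of 0.0344, and its size, which depends on values near 0, is not given. The alveolar transporter ABCA3 was at 71.6 and 58.2 at day 120 and 70.7 and 35.8 at term in CF lung (2.8 ± 0.46, adjusted p = 0.00816), with 1 CF term animal within the range of the CF fetuses and 1 below it. EGLN3 of the hypoxia list was at 17.2 and 10.2 at day 120 and 63.6 and 635 at term in CF lung (-4.94 ± 1.06, adjusted p = 0.0325), with CF term replicate 2 at 9.99 times replicate 1, and of 19 hypoxia genes EGLN3 and ANKRD37 (-6.15 ± 1.19, adjusted p = 0.0192) passed, both with more negative changes in WT, with medians of 0.24 in WT and 2.69 in CF lung. FABP4, LYVE1 and JCHAIN did not pass with the replicate number as a block. Without CF day 120 replicate 1, 9 macrophage genes had a more positive and 2 a more negative change in WT, and without WT term replicate 1, 4 had a more positive one. Of the hypoxia genes, 10 had a more negative change in WT without CF day 120 replicate 1 and 10 without CF term replicate 1. FABP4 did not pass without CF day 120 replicate 2, with an adjusted p of 0.0639. CD68 and FABP4 did not pass without CF term replicate 1, with adjusted p values of 0.0551 and 0.0664, and the difference was then -7 for ANKRD37, -3.75 for EDN1, -5.8 for EGLN3, -5.59 for JCHAIN and -5.07 for LYVE1. ANKRD37, C3, CD68, COLEC12, CXCR4, EDN1, EGLN3, FABP4, JCHAIN and LYVE1 did not pass without CF term replicate 2, with adjusted p values of 0.0903, 0.104, 0.0733, 0.0885, 0.0746, 0.144, 0.148, 0.171, 0.2 and 0.126, and the difference was then -3.78 for ANKRD37, -1.84 for EDN1, -2.47 for EGLN3, -1.68 for JCHAIN and -2.27 for LYVE1. ANKRD37, C3, CD68, COLEC12, CXCR4, EDN1, EGLN3, FABP4, ITGB2 and JCHAIN did not pass without WT day 120 replicate 1, with adjusted p values of 0.0527, 0.0893, 0.112, 0.0541, 0.0933, 0.0973, 0.0873, 0.155, 0.0765 and 0.103. ABCA3, ANKRD37, C3, CD68, COLEC12, CXCR4, EDN1, EGLN3, FABP4, ITGB2, JCHAIN and LYVE1 did not pass without WT day 120 replicate 2, with adjusted p values of 0.0663, 0.0804, 0.139, 0.151, 0.149, 0.149, 0.128, 0.106, 0.22, 0.2, 0.149 and 0.176, and the difference was then -3.46 for LYVE1. ANKRD37, CXCR4, EDN1, EGLN3, JCHAIN and LYVE1 did not pass without WT term replicate 1, with adjusted p values of 0.0896, 0.116, 0.126, 0.11, 0.144 and 0.0941. ANKRD37, C3, CD68, COLEC12, CXCR4, EDN1, EGLN3, FABP4, ITGB2, JCHAIN and LYVE1 did not pass without WT term replicate 2, with adjusted p values of 0.0633, 0.117, 0.141, 0.13, 0.115, 0.122, 0.146, 0.146, 0.192, 0.172 and 0.149, and the difference was then -6.81 for ANKRD37 and 1.64 for CD68.

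**Figure D5:**
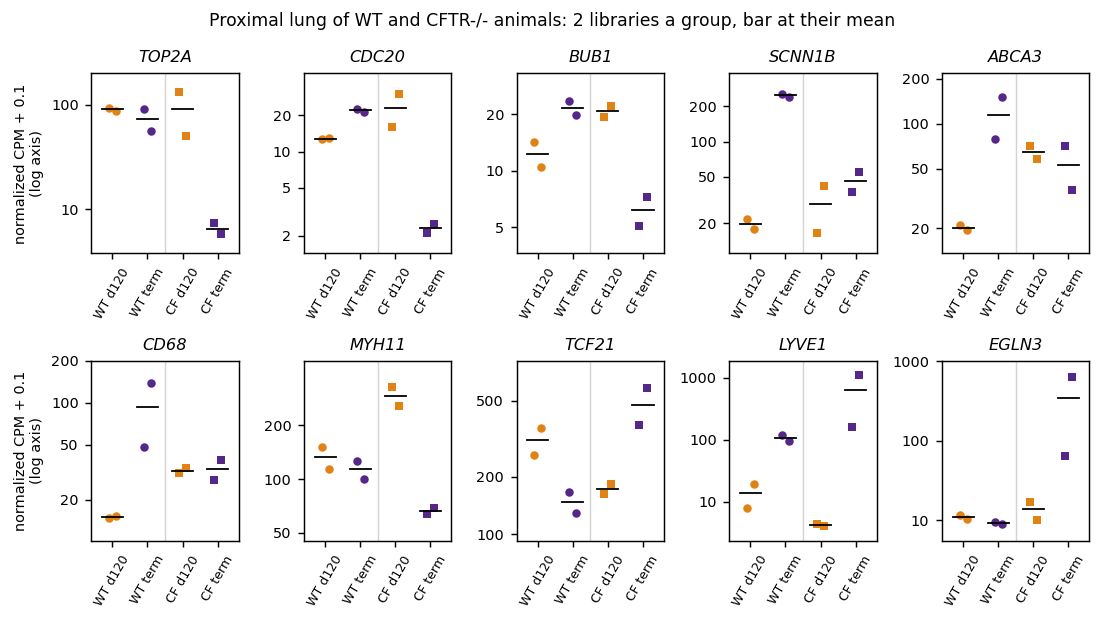
Normalized CPM + 0.1 (log axis) of 10 genes in proximal lung of WT and CFTR-/- animals at day 120 and term, with 2 libraries a group and a bar at their mean. TOP2A, CDC20 and BUB1 are low in both CF term animals, SCNN1B is high in both WT lambs, and the pair of CF term animals lies far apart for EGLN3 and LYVE1.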

How the data were processed

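Lung tissue was frozen, and RNA was extracted with TRIzol. The authors prepared oligo-dT libraries, read them as paired ends on a NovaSeq, aligned the reads to Oar_v4.0 with STAR (version 2.6 in the submitters' processing notes) and deposited raw read counts per gene from featureCounts 1.6.3. Annotation release, strand setting and how read pairs were counted were not given in the sources used here. Of counts from 1 to 20, 69.2% and 70.5% were even in the WT proximal term libraries. In the other WT proximal libraries, day 120 included, 75.2% to 78.2% were even.

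From the deposited counts, edgeR 4.0.16 (R 4.3.3, limma 3.58.1) fitted the 10 WT proximal libraries with 1 mean per time point, TMM scaling (factors 0.936 to 1.056), the filterByExpr filter (minimum count 10, minimum total 15) and quasi-likelihood F tests whose p-values were adjusted by Benjamini-Hochberg over 18186 of 24478 genes. Differences from distal (20 WT libraries) and CF (20 proximal libraries) changes were interaction terms at an adjusted p of 0.05. Totals were 25301277 to 125713608. Counting intervals are exact at 95% and cover counting error only. Replicates within a group differed by more than counting noise (chi-square per degree of freedom 48.2 at day 120 and 182 at term).

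Of 1073 listed symbols in 47 lists, 942 matched the files' symbols, 28 matched through RefSeq names of ARS-UI_Ramb_v3.0 and 103 were not matched. Members and lists were chosen with earlier results of these data known. The genes named were each list's defining genes, its 3 leading rises and 3 leading falls that passed (mean log2 CPM of 1 or more), the 5 leading DEGs in each direction and the 3 leading differences from distal and CF lung. Apart from the defining genes, a gene was named only if the WT proximal libraries of the ages did not overlap. Their separation was thus fixed by the choice. Named outside this rule, after their values were seen, were TFF2, SCGB3A2, C1QA, CSF1R, MPO, ELANE, MMP12, EPYC, CSF2, CCL19, TUBB4B, ANO1, SYT1, CALD1, LAMA3, ADAMTS2, KCNJ8, FABP4, TIE1, CD34, CD244, IL2RB, BLK, CA12, LDHA, JUNB, GADD45A, COL9A2, UPK1B, LRRN4, TTR, NKX2-1, SFRP4, LOC105606599 and LOC101123672. The tests were tried on simulated counts, and alternatives included RLE and upper quartile scaling, no filter, DESeq2 1.42.0, thinned libraries, blocks and leaving out each library. Some listed genes are not reported here.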

Additional observations from a re-analysis of the deposited data

Results flagged for a closer look

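The change in WT proximal lung differed from that in distal lung of the same animals for PRG4, at -6.39. It differed from that in CF proximal lung for 30 of the genes chosen by the naming rule. Each call was by edgeR's interaction term with Benjamini-Hochberg adjustment. Over all 20344 genes 362, or 1.78%, passed against CF lung. The 30 are not a rate, since many genes were chosen by their WT change or by this difference. ANO1, TUBB4B, FABP4 and COL9A2 (adjusted p = 0.00899), named outside that rule, also passed. No cause was tested, and genotype cannot be told apart from cloning and the donor line, nor from any difference in delivery and air breathing at term, since natural birth is stated for WT alone. Values are differences in log2 fold change.

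More positive changes in WT were seen for SCNN1B (3.01), MYH11 (1.9), CNN1 (3.36), MMP7 (6.04), CD68 (2.6), ITGB2 (2.42), C3 (2.2), ABCA3 (2.8), TOP2A (3.5), CCNE1 (2.2), BUB1 (2.6), CDC20 (4.17), TSKS (5.26) and CTSL (5.26). More negative changes in WT were seen for TCF21 (-2.53), MEOX2 (-2.44), BMP5 (-2.16), LYVE1 (-4.27), EDN1 (-3.09), AGTR1 (-2.08), CXCR4 (-1.68), JCHAIN (-4.68), COLEC12 (-1.48), CDR1 (-6.96), EGLN3 (-4.94), ANKRD37 (-6.15), LOC105605956 (-3.93), COL8A2 (-2.08), LOC105605070 (-6.53) and SNCG (-7.75).

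Of these 30 genes 9 passed in all 8 fits that left out 1 library. The CF term animals differed from each other for several genes, replicate 2 being 9.99 times replicate 1 for EGLN3, 9.29 for ANKRD37, 8.83 for SNCG, 6.95 for LYVE1 and 15 for JCHAIN. For the genes not followed in the comparison with CF lung above, and again for ANKRD37, the calls depended on single libraries as follows. CDR1 and SNCG moved to differences of -7.81 and -6.97 without CF day 120 replicate 1. CTSL, SNCG and TSKS moved to differences of 4.36, -9.51 and 4.45 without CF day 120 replicate 2. TSKS did not pass without CF term replicate 1, with an adjusted p of 0.0694, and the difference was then -7 for ANKRD37, 6.28 for CTSL, -7.2 for LOC105605070 and -8.59 for SNCG. ANKRD37, CCNE1, COL8A2, CTSL, SNCG and TSKS did not pass without CF term replicate 2, with adjusted p values of 0.0903, 0.118, 0.146, 0.147, 0.151 and 0.141, and the difference was then -3.78 for ANKRD37, -5.22 for LOC105605070 and -5.44 for SNCG. ANKRD37, CCNE1, COL8A2, CTSL, SNCG and TSKS did not pass without WT day 120 replicate 1, with adjusted p values of 0.0527, 0.155, 0.152, 0.113, 0.0615 and 0.13. ANKRD37, CCNE1, COL8A2, CTSL, SNCG and TSKS did not pass without WT day 120 replicate 2, with adjusted p values of 0.0804, 0.0826, 0.131, 0.206, 0.139 and 0.222, and the difference was then -7.02 for SNCG. ANKRD37, CCNE1, COL8A2 and SNCG did not pass without WT term replicate 1, with adjusted p values of 0.0896, 0.0516, 0.164 and 0.105, and the difference was then -8.09 for CDR1, 6.12 for CTSL, -8.33 for SNCG and 6.09 for TSKS. ANKRD37, CCNE1, COL8A2, CTSL, SNCG and TSKS did not pass without WT term replicate 2, with adjusted p values of 0.0633, 0.176, 0.102, 0.226, 0.185 and 0.247, and the difference was then -6.81 for ANKRD37, -6.33 for CDR1, 2.86 for CTSL and 3.1 for TSKS.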

How the results depend on the processing

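The number of DEGs, 389 as reported, was 777 with no filter, 2426 with DESeq2, 722 with bias-adjusted quasi-likelihood, 206 with the replicate number as a block, 125 with glmTreat, 225 with the day 100 libraries, which share an animal label, summed (an alternative chosen after seeing the data) and 0 by edgeR when only the 4 libraries compared were fitted, where 3585 genes still passed an adjusted p of 0.05 and 6813 had an unadjusted p under 0.05. It was 404 with RLE scaling, 411 with thinned libraries and 437 with upper quartile scaling (214 higher and 223 lower, against 219 and 170), and 28 to 337 with 1 library left out, lowest without day 120 replicate 2. The 4476 genes at an adjusted p of 0.05 were 1480 with glmTreat and 2073 to 3431 with 1 library left out. The replicate numbers are names only, since the animals differ between ages, and deviations of same-numbered libraries had r = -0.11 over 13648 genes. With the animal as a block, where regions share animals (r 0.0962 at day 120 and 0.633 at term), 6 genes differed between regions, 10 with DESeq2, and 0 to 3 with 1 library left out, 0 without distal day 120 replicate 2, against 456 at an unadjusted p under 0.05 in the reported fit. The 362 differences from CF lung were 1374 with DESeq2, 297 with the replicate number as a block and 55 to 3837 with 1 library left out.

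The median log2 fold change over all genes was 0.06 as reported, 0.041 with RLE and 0.0025 with upper quartile scaling. Some genes that did not pass changed sign. CFTR was at -0.0491 with thinned libraries. ELN was at -0.00438 with RLE and with DESeq2, -0.0115 with thinned libraries, -0.0355 with only the 4 libraries and -0.000316 with the day 100 libraries summed. NOS3 was at 0.00325 with no filter and 0.0239 with thinned libraries. With 1 library left out, log2 fold changes ran from -0.659 to 2.55 for TP63, from -0.583 to 0.286 for KRT5, from -0.309 to 0.342 for CFTR, from -0.31 to 0.688 for SOX9, from -0.202 to 0.63 for ACTA2, from -0.436 to 0.000477 for MYH11, from -0.0795 to 0.105 for ELN, from -0.0252 to 0.356 for TIMP1, from -0.961 to 0.121 for LIN28B, from -0.385 to 0.286 for PECAM1, from -0.386 to 0.0236 for VWF, from -0.654 to 0.0701 for EDNRB, from -0.399 to 0.152 for PROX1, from -0.246 to 0.0161 for EDN1, from -0.41 to 0.363 for NOS3, from -0.135 to 0.293 for VEGFA, from -0.126 to 0.0661 for JCHAIN, from -0.277 to 1.21 for CXCL8, from -2.46 to 0.773 for UPK3B, from -3.12 to 0.54 for MSLN and from -0.117 to 0.212 for MKI67. Of 201 genes chosen by the naming rule that passed, 127 passed in all 4 fits that left out a library, and 26 did not pass with only the 4 libraries, 5 with the replicate number as a block, 4 with thinned libraries, 4 with the day 100 libraries summed, 2 with DESeq2 and 1 with no filter. With the replicate number as a block, 7 of these 30 calls against CF lung were lost, with adjusted p values of 0.0519 for LYVE1, 0.0616 for JCHAIN, 0.0514 for CCNE1, 0.0523 for COL8A2, 0.0545 for TSKS, 0.0656 for CTSL and 0.0502 for SNCG. With no filter CCNE1 (0.0533) and COL8A2 (0.0502) were lost, and with thinned libraries CTSL (0.0542). Of other genes named in that comparison, ANO1 was lost with RLE (0.0509), no filter (0.0546) and thinned libraries (0.0507), TUBB4B with the block (0.0616), no filter (0.0533) and thinned libraries (0.0607), and FABP4 with the block (0.0677). Depth was lower at day 120 than at term, which limits low genes most. The cause of these shifts was not tested.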
